A study of Homo sapiens and Mus musculus with 33 samples.

Results

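The cells described are the cytokine-producing cells of stimulated Jurkat cultures, 914 barcodes in all. They were chosen by their own transcripts: a barcode of a stimulated Jurkat library belonged if it held at least 5000 UMIs (unique molecular identifiers, each standing for 1 captured RNA molecule) and 2 or more UMIs summed over TNF, CCL3, CCL4, IL2 and XCL1. They were set against barcodes of the same library with at least 5000 UMIs and 0 such UMIs, called the zero class here. The positive class held 208 barcodes of library 1 and 706 of library 2, out of 3908 barcodes of at least 5000 UMIs in both, and the zero class held 1562 and 533. All 16 single-cell libraries of the series together hold 30019 barcodes. Because UMIs of the 5 genes chose the members, the levels of these genes are given as a description with no test.

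Jurkat is an established human leukaemic T cell line. The study labelled its cells with 4-thiouridine (4sU), which cells build into the RNA they make, and profiled them by NOTE-seq, a droplet method for newly made RNA built on the 10x Genomics 3' kit. The stimulated cultures had received PMA and ionomycin (PMA/ION) and the unstimulated cultures DMSO, and both were labelled with 4sU. The UMI counts used here cover all RNA, old and new. There were 2 libraries of each group, titled with and without "rep1" and called library 1 and library 2 below. Per the labels the stimulated cells are of clone E6-2 and those given DMSO of clone E6-1, so clone label and stimulation cannot be told apart. Doses and the duration of stimulation are not given in the sources used here. No label says that libraries of a group came from separate cultures, and the p-values then reflect no more than how these libraries vary, possibly for technical reasons.

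PMA mimics diacylglycerol and switches on protein kinase C, which feeds the MAP kinase and NF-kappaB pathways, while ionomycin lets calcium into the cell and frees the phosphatase calcineurin to activate NFAT. Together they bypass the T cell receptor. AP-1, NF-kappaB and NFAT then act on cytokine genes: TNF, a secreted inflammatory cytokine, IL2, the T cell growth factor for which Jurkat has long served as a model, and the chemokines CCL3, CCL4 and XCL1, which draw other leukocytes. Cytokine transcription in single T cells is known for being uneven, with some cells making much and others none.

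Promoter sequences are shown for the rule genes that have an entry in the RefSeq promoter table (GRCh38.p14, 250 bases before to 50 after the start), which were TNF, IL2 and CCL3. CCL4 and XCL1 have no entry there. GGAAA, the core that NFAT binds, is in capitals on either strand (TTTCC on the strand shown). Only some matches are printed. Left out were those at -59 for TNF, -214 for IL2, and -227 and -52 for CCL3. CCL3 has 3 entries, and the windows shown come from 1 of them. Positions count from the start in that table, which can differ from the start used in other accounts of a gene.
TNF, match at -185 from the start, chr6:31575368-31575397, plus strand: tgtgtccccaacTTTCCaaatccccgcccc
TNF, match at -80, chr6:31575473-31575502, plus strand: caccaaggaagtTTTCCgctggttgaatga
IL2, match at -45, chr4:122456753-122456782, minus strand: ttaaagaaaggaGGAAAaactgtttcatac
CCL3, match at -77, chr17:36090203-36090232, minus strand: tacgcttaaaaaTTTCCctcctcaccccca
GGAAA was also found in 61.2% of the 35116 promoters of the table, on either strand, so a match is common. TATAAA, searched on the gene's strand only, was present in 7.33% of them, and in TNF and CCL3 at the same distance of -29 from the start. Those windows follow, with TATAAA in capitals.
TNF, chr6:31575524-31575553, plus strand: gccccagggacaTATAAAggcagttgttgg
CCL3, chr17:36090155-36090184, minus strand: gccagggctgccTATAAAgaggagagctgg
The AP-1 letters TGANTCA (7.71% of promoters, either strand) were in none of these windows of 300 bases, and the kappaB letters GGGNNNTCC (21.0% of promoters) were found for TNF only. Bases outside the windows were not searched, so a gene without a match here may hold the letters nearby. A match describes letters, not binding.

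The barcodes carried T cell markers. Their name as Jurkat cells comes from the labels, and no marker particular to that line was examined. The 20 genes of the T cell receptor and identity list summed to 4203 and 4369 CPM (UMIs per 1000000 UMIs of the sum) in the positive class and 3834 and 4214 CPM in the zero class of libraries 1 and 2. Over the 4 stimulated classes B cell markers summed to 1.43 to 2.66 CPM, erythroid markers to 1.02 to 5.12, fibroblast markers to 19.7 to 48.0 and myeloid markers to 103 to 118, of which AIF1 alone gave 97.5 to 114. NK cell markers summed to 9.63 against 7.38 CPM in the positive and zero class of library 1 and to 7.04 against 2.98 CPM in library 2. In each class 7 of 10 erythroid, 2 to 4 of 8 B cell, 2 to 4 of 7 NK cell, 4 to 7 of 12 myeloid and 3 to 5 of 8 fibroblast markers were at 0 UMIs. Only 0 B cell, 1 erythroid, 1 NK cell, 2 myeloid and 2 fibroblast markers had enough UMIs to be tested between the classes, and none passed. HBA1 (log2 fold change 1.78, SE 0.59), KLRD1 (0.88, SE 0.39) and THY1 (0.18, SE 0.14) were higher in the positive class of both libraries. AIF1 and COL1A1 were lower in both, and CD68 was mixed. With so few markers this test says little about other cell types. Median depth over all deposited barcodes was 17285 and 8876 UMIs in the stimulated libraries and 17481 and 14975 in the unstimulated ones, and the libraries shared between 0 and 4 barcodes in pairs. Mitochondrial UMIs made up a median of 1.20% and 2.76% in the positive class and 1.29% and 2.82% in the zero class.

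Barcodes with 2 or more rule UMIs were more frequent in library 2 than in library 1 and rare without stimulation. In stimulated library 1, 208 of 2182 barcodes (9.53%, exact 95% interval 8.33 to 10.8) were positive, and in library 2, 706 of 1726 (40.9%, 38.6 to 43.3). In the unstimulated libraries, whose barcodes of 0 rule UMIs had median depths of 17993 and 17731 UMIs, 4 of 1760 (0.227%, 0.0620 to 0.581) and 2 of 278 (0.719%, 0.0872 to 2.57) reached 2 UMIs. With each barcode thinned to 5000 UMIs the shares were 3.02% and 22.8% under stimulation, 0.170% in unstimulated library 1 and 0 of 278 barcodes in unstimulated library 2, with an upper exact bound of 1.32%. The gap between the stimulated libraries ran against their depth, since the library with more positive barcodes was the shallower. Intervals cover counting error only. The level of free RNA in the stimulated droplets was not measured here, since the libraries held no cell type that lacks these genes, so whether a barcode with few rule UMIs made these transcripts itself was not tested.

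Many barcodes lay near the line between the classes. In library 1, 412 barcodes held exactly 1 rule UMI and stood in neither class, 95 held exactly 2 and 113 held 3 or more. In library 2 the numbers were 487, 244 and 462. Members held between 2 and 57 rule UMIs in library 1 and between 2 and 37 in library 2, with a median of 3 in both.

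**Figure D1:**
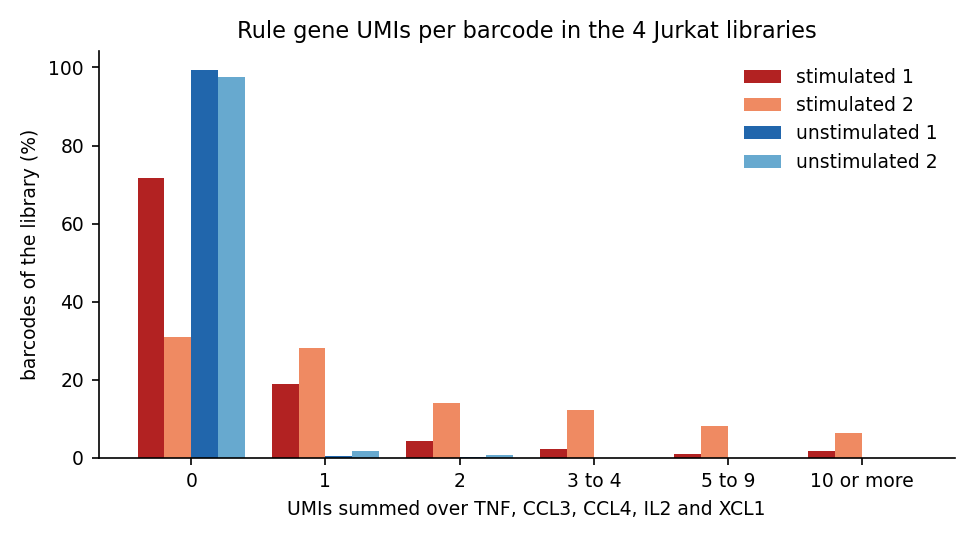
Share of the barcodes of at least 5000 UMIs (y axis, percent) by the number of UMIs summed over the 5 rule genes (x axis) in the 2 stimulated and 2 unstimulated Jurkat libraries. In the stimulated libraries 71.6% and 30.9% of barcodes held none, and 1.74% and 6.26% held 10 or more.

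TNF and CCL4 made up most of the rule UMIs. TNF was seen in 353 of 2182 barcodes of stimulated library 1 and 795 of 1726 of library 2, with at most 7 and 14 UMIs in a barcode. It summed to 6 UMIs and 1 UMI in the unstimulated libraries. CCL4 was seen in 303 and 706 barcodes, with up to 51 and 24 UMIs in a barcode, against 7 and 4 UMIs in all unstimulated barcodes. Among members, CCL4 gave 63.2% and 50.8% of the rule UMIs and TNF 25.4% and 36.4%.

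CCL4 was concentrated in fewer cells than TNF. The tenth of members with the most CCL4 held 61.3% and 49.0% of the members' CCL4 UMIs, whereas the tenth with the most TNF held 26.8% and 29.2% of the TNF UMIs. In barcodes thinned to 5000 UMIs the variance of CCL4 was 9.94 and 5.89 times its mean, against 1.18 and 1.57 times for TNF, where even sampling of a constant level gives a ratio near 1. TNF thus lay closer to counting noise than CCL4 in both libraries.

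TNF and CCL4 often stood alone. In library 1, 66 members held both, 89 held TNF without CCL4 and 48 held CCL4 without TNF. In library 2 the numbers were 346, 218 and 140. A single rule gene supplied all rule UMIs in 56.7% and 37.1% of members.

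The less frequent rule genes differed between the libraries. IL2 gave 94 UMIs in 29 barcodes of library 1, up to 14 in a barcode, and 20 UMIs in 13 barcodes of library 2. XCL1 went the other way, with 16 UMIs in 11 barcodes of library 1 and 186 UMIs in 116 barcodes of library 2. CCL3 gave 68 and 333 UMIs in 37 and 149 barcodes. The sum of IL2 was thus higher in the library with fewer members, and those of CCL3 and XCL1 in the library with more.

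Each rule gene was then read in barcodes chosen by the other 4 genes, after thinning. CCL4 was detected in 12 of 26 barcodes (46.2%, exact interval 26.6 to 66.6) with 2 or more UMIs of the other 4 in library 1, against 4.71% (3.83 to 5.73) of those with 0. In library 2 the shares were 45.1% (38.6 to 51.7) and 19.8% (17.5 to 22.3). For TNF they were 14.6% (6.07 to 27.8) against 6.11% (5.11 to 7.24) in library 1 and 45.4% (38.2 to 52.6) against 27.9% (25.5 to 30.5) in library 2. TNF therefore followed the other 4 genes less closely than CCL4 did in these values, and its intervals separated only in library 2. XCL1 was found in 15.4% against 1.10% in library 2, and CCL3 in 10.8% against 0.260% in library 1 and 13.6% against 2.93% in library 2. IL2 was found in 14.5% against 0.260% in library 1.

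Some pairs travelled together. Of the 75 thinned barcodes with XCL1 in library 2, 61 (81.3%) also held CCL4, against 22.7% of those without XCL1. CCL4 was also seen in 8 of 13 barcodes with CCL3 in library 1 and 53 of 86 in library 2. In library 1, 10 of 15 barcodes with IL2 held CCL4 and 0 of 15 held TNF, against 6.41% of those without IL2. In library 2, 4 of 8 barcodes with IL2 held TNF. These counts are small.

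Across the rest of the transcriptome, 431 genes were higher and 58 lower in the positive class, out of 13765 tested, which is 3.13% and 0.421% of genes. The comparison used UMIs summed per library and class over 202 and 474 barcodes of each class matched for depth (n = 2 libraries per class), and edgeR's quasi-likelihood test with library as a block and Benjamini-Hochberg adjustment at 0.05. The 5 rule genes and their near-identical copies were left out. Of the risers 421 had the same sign in both libraries, which a joint test of both favours. Among the 8854 genes with at least 100 UMIs in each library 57.2% had the same sign. The Spearman rank correlation of the 2 libraries' ratios over those genes was 0.22. A log2 fold change above 1 was seen for 132 of the risers, against 1 called gene below -1. The calls rest on pairing the classes within a library: without that block edgeR called 0 genes, with 52 at an unadjusted p under 0.05, and DESeq2 with the block called 112 higher and 2 lower.

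**Figure D2:**
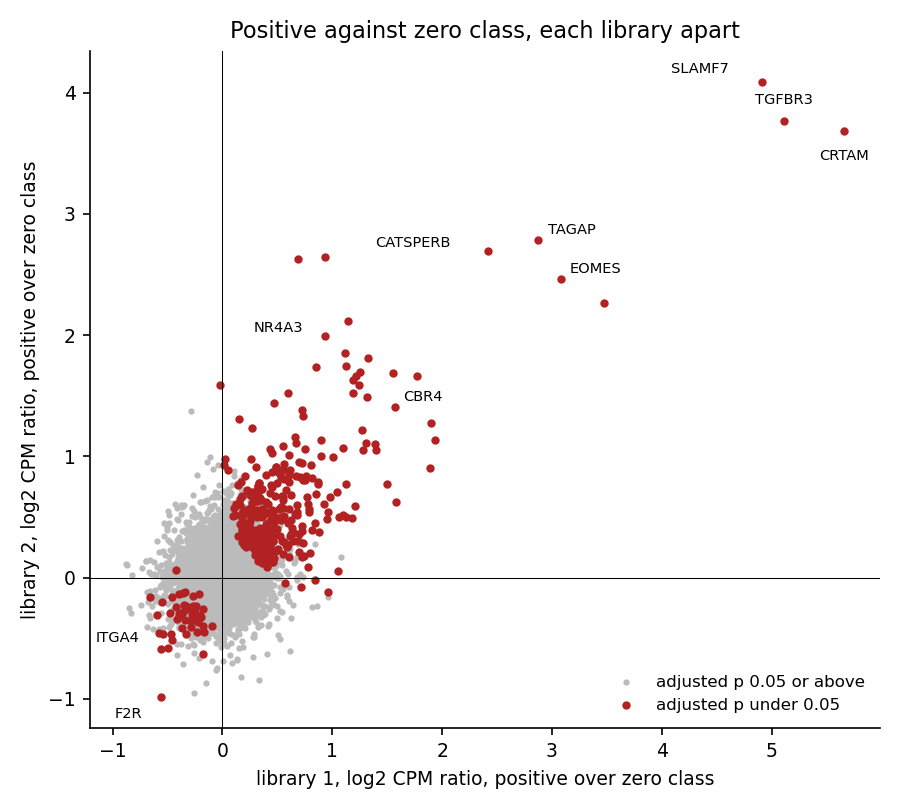
Log2 ratio of CPM, positive over zero class, in stimulated library 1 (x axis) and library 2 (y axis) for the 8854 genes with at least 100 UMIs in the compared barcodes of each library. Red points passed an adjusted p of 0.05, and SLAMF7, TGFBR3 and CRTAM lie farthest from the rest in both libraries.

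Among genes with at least 100 UMIs in each library those farthest above the rest were TGFBR3, CRTAM and SLAMF7. TGFBR3, betaglycan, a co-receptor for TGF-beta, stood at 117 CPM in the positive and 3.28 CPM in the zero class of library 1 and at 62.1 and 4.46 CPM in library 2 (log2 fold change 4.53, SE 0.17, edgeR adjusted p = 3.19e-41). CRTAM, an adhesion receptor induced on activated cytotoxic T cells, stood at 77.5 against 1.44 CPM and 42.2 against 3.19 CPM (4.69, SE 0.21). SLAMF7, a receptor of the SLAM family found on cytotoxic lymphocytes, stood at 21.5 against 0.615 CPM and 23.5 against 1.27 CPM (4.54, SE 0.31). In each of these genes both positive sums lay above both zero sums, which follows largely from picking them by their ratios in each library.

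EOMES, a T-box transcription factor of cytotoxic and memory T cells, stood at 44.3 against 5.12 CPM in library 1 and 62.7 against 11.3 CPM in library 2 (log2 fold change 2.70, SE 0.16). TAGAP, a GTPase-activating protein named for its induction in T cell activation, stood at 96.7 against 13.1 CPM and 148 against 21.5 CPM (2.81, SE 0.11). Among the other risers named by rule were PRSS23, a serine protease (2.81, SE 0.23), CATSPERB, a subunit of the sperm calcium channel (2.53, SE 0.21), and MAP3K8, a kinase upstream of ERK (1.73, SE 0.22). PHLDA1 (1.61, SE 0.20), CBR4, a mitochondrial reductase (1.51, SE 0.09), SKIL, an inhibitor of SMAD signalling (1.46, SE 0.16), and SRGN, the granule proteoglycan serglycin (1.40, SE 0.16), completed the 12. All 12 passed the test, but the same sums had chosen them, so this adds no support.

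Of 13 cytotoxic effector genes 8 had enough UMIs to be tested. Of these 6 rose and none fell, against 3.13% and 0.421% of all genes tested. Their median log2 fold change was 1.71 beside -0.02 over all genes tested. A gene with few UMIs in the zero class could pass the count filter only through the positive class, where it is high. The counts and medians of this list and of the other lists are therefore a description. The risers were EOMES, SRGN, FASLG, CST7, GZMK and GZMA. FASLG, the Fas ligand, stood at 19.3 against 1.02 CPM in library 1 and 29.0 against 4.25 CPM in library 2. CST7, cystatin F, an inhibitor of granule proteases, stood at 5.94 against 2.46 CPM and 35.6 against 7.44 CPM.

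Of 32 other cytokines and chemokines 9 had enough UMIs to be tested, of which 4 rose and none fell (median 0.63). The same limit of the count filter holds here. IFNG, the signature cytokine of type I helper and cytotoxic T cells, stood at 12.5 against 0.205 CPM in library 1 and 25.6 against 2.13 CPM in library 2, with 0 UMIs in the unstimulated sums (log2 fold change 4.00, SE 0.32, edgeR adjusted p = 1.16e-18). TNFSF9, the ligand of the costimulatory receptor 4-1BB, rose by 1.79 (SE 0.17). LTA, lymphotoxin alpha, whose gene neighbours TNF, rose by 0.63 (SE 0.14). FASLG, which is in both lists, was the other riser.

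Of 28 immediate early genes 19 rose and none fell (median 0.46), against 3.13% and 0.421% of all genes tested. EGR2, a zinc finger factor induced by calcium signals, stood at 176 against 74.6 CPM in library 1 and 329 against 109 CPM in library 2 (log2 fold change 1.43, SE 0.08). NR4A3, an orphan nuclear receptor, stood at 687 against 360 CPM and 265 against 66.5 CPM (1.32, SE 0.08). FOS, a subunit of AP-1, rose by 0.76 (SE 0.07) and ZFP36L1, an RNA decay factor, by 0.94 (SE 0.10).

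The zero class also held these transcripts. In the unstimulated libraries EGR2 stood at 0.700 and 0.616 CPM, NR4A3 at 1.16 and 0 CPM, and FOS at 2.29 and 1.70 CPM, whereas the zero class held FOS at 155 and 205 CPM. For 23 of the 28 immediate early genes both zero sums lay above both unstimulated sums, against 6.49% of the genes tested, and for 1 of the 28 both lay below, against 5.58%. In the positive class 26 of the 28 lay above, against 7.86% of the genes tested. With a fit of 2 libraries against 2 and no block, edgeR called 0 genes between the zero class and unstimulated barcodes, with 119 at an unadjusted p under 0.05, and DESeq2 called 24. The same fit for the positive class called 0, with 215 at an unadjusted p under 0.05, and DESeq2 called 56; both comparisons share the unstimulated libraries. Libraries of the same number resembled each other: ribosomal protein genes summed to 51278 CPM in the zero class and 53211 CPM unstimulated in library 1, and to 140258 and 141889 CPM in library 2. With the number as a block edgeR called 481 genes higher and 416 lower in the zero class, and 1014 and 869 in the positive class, but no label says what the number stands for and 2 pairs do not establish a pairing.

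Of 20 NFAT targets and calcineurin feedback genes 9 rose and none fell (median 0.23), against 3.13% and 0.421% of all genes tested. The limit of the count filter holds for CRTAM, which had 7 and 15 UMIs in the zero sums of libraries 1 and 2. Besides CRTAM, EGR2 and NR4A3 the named member was CBLB, a ubiquitin ligase that dampens T cell receptor signals, at 362 against 207 CPM in library 1 and 33.3 against 17.4 CPM in library 2 (log2 fold change 0.84, SE 0.08). Of 17 NF-kappaB subunits and feedback genes 7 rose and none fell (median 0.25). REL, the c-Rel subunit, stood at 525 against 319 CPM and 151 against 57.8 CPM (0.94, SE 0.07). NFKBID rose by 0.60 (SE 0.07), NFKBIA, the inhibitor IkappaB alpha, by 0.50 (SE 0.07) and TRAF1 by 0.87 (SE 0.20).

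Of 14 MAP kinase feedback genes 4 rose and none fell (median 0.44): PHLDA1 and the phosphatases DUSP2 (log2 fold change 0.46, SE 0.06), DUSP5 (1.00, SE 0.15) and DUSP8 (1.45, SE 0.39). Of 14 activation receptors and markers 4 rose and 1, the costimulatory receptor ICOS, fell (median 0.24). CRTAM was among these risers, and the limit of the count filter holds for it and for DUSP8. IL2RA, the alpha chain of the IL2 receptor, stood at 37.9 against 20.3 CPM in library 1 and 13.4 against 4.25 CPM in library 2. Of 19 T cell receptor and identity genes 4 rose and none fell (median 0.08). CD28, the main costimulatory receptor, stood at 49.8 against 17.6 CPM and 11.3 against 1.70 CPM (1.70, SE 0.18), and CD6 rose by 0.75 (SE 0.09). Over all genes tested 3.13% rose and 0.421% fell.

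Few genes of the growth and housekeeping lists were called, but so were few of all genes tested, of which 3.13% rose and 0.421% fell. A count of 0 in lists of this size therefore says little. None of 27 G1/S genes, 31 ribosome biogenesis genes, 55 cytosolic ribosomal proteins, 13 mitochondrially encoded genes, 21 glycolysis genes or 14 ETS factors passed the test. Their medians lay between -0.12 and 0.00. Of 32 G2/M genes 1 fell, DLGAP5, a spindle protein (log2 fold change -0.29, SE 0.08), and the list's median was -0.13. Though few of them passed the test, 21 of the 32 G2/M genes (65.6%) and 20 of the 31 ribosome biogenesis genes (64.5%) were lower in both libraries, as were 11 of 27 G1/S genes (40.7%), against 28.8% of all genes tested. In the same lists 1, 1 and 2 were higher in both, against 27.7% of all genes. FLI1, the ETS factor named in the study's title, stood at 122 against 137 CPM in library 1 and 49.3 against 51.2 CPM in library 2 (-0.13, SE 0.09, edgeR adjusted p = 0.624). In unstimulated barcodes it stood at 247 and 91.7 CPM. These values overlapped those of the zero class across libraries, and the edgeR fit with no block did not call FLI1 (-0.84, SE 0.64, adjusted p = 0.9999). Within each library number the zero class was lower (-0.83, SE 0.13, adjusted p = 0.000109 in the edgeR fit with the number as a block). That smaller p rests on a pairing by number that no label gives.

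Of 15 genes linked to FLI1 in blood cells 3 rose and 1 fell. TGFBR2, the signalling receptor for TGF-beta, stood at 146 against 63.9 CPM in library 1 and 34.3 against 11.9 CPM in library 2 (log2 fold change 1.27, SE 0.10), and MYB, a progenitor transcription factor, fell by 0.26 on the log2 scale (SE 0.08). Of 9 nuclear long noncoding RNAs 2 rose: NEAT1 (0.77, SE 0.06), the scaffold of paraspeckles, and MALAT1 (0.27, SE 0.06). Of 18 apoptosis regulators 3 rose, among them BCL2L11, which encodes BIM (0.54, SE 0.09). Of 13 quiescence and circulation genes 3 rose, the transcription regulators ID2 (1.67, SE 0.21) and FOXO1 (0.61, SE 0.13) and ARRDC3 (0.73, SE 0.21). Of 20 genes of the integrated stress and unfolded protein responses ATF3 and PPP1R15A rose, of 13 actin cytoskeleton genes VIM and CORO1A, of 11 cytokine signalling feedback genes BCL6 (1.73, SE 0.30), and of 11 RNA decay regulators ZFP36L1. None of 11 heat shock or 7 interferon response genes passed the test. The medians of the lists in this paragraph lay between -0.05 and 0.11, beside -0.02 over all genes tested. Of all genes tested 3.13% rose and 0.421% fell, so the single risers named here do not speak for their lists.

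The falling genes changed by less. Of the 12 named by rule, which the same sums had chosen, 7 passed the test. F2R, the thrombin receptor, stood at 11.1 against 16.4 CPM in library 1 and 7.25 against 14.5 CPM in library 2 (log2 fold change -0.75, SE 0.21). ITGA4, the alpha 4 integrin chain, stood at 270 against 374 CPM and 125 against 172 CPM (-0.47, SE 0.07). RPP40, a subunit of RNase P, changed by -0.59 (SE 0.18), HSPA4L, a chaperone, by -0.54 (SE 0.14), SNAP23, a vesicle fusion protein, by -0.49 (SE 0.12), ZSCAN30 by -0.54 (SE 0.15) and the transcript AC114316.1 by -0.52 (SE 0.07). For MRPL46, RTN4RL1, SNHG26, MEX3D and RCC1L the values were -0.52, -0.51, -0.47, -0.49 and -0.52, none past the threshold.

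The risers CRTAM, TGFBR3 and NR4A3 were by far highest in barcodes with 3 or more rule UMIs. In thinned barcodes of library 1, CRTAM stood at 2.43, 1.46, 10.5 and 257 CPM in barcodes with 0, 1, 2, and 3 or more rule UMIs, and in library 2 at 3.75, 4.52, 4.92 and 80.5 CPM. TGFBR3 stood at 3.33, 7.77, 6.32 and 368 CPM in library 1 and at 4.50, 1.23, 10.7 and 106 CPM in library 2. NR4A3 stood at 397, 462, 461 and 1234 CPM in library 1 and at 68.7, 78.9, 100.0 and 392 CPM in library 2. Barcodes just inside the threshold, at 2 UMIs, therefore lay closer to those just outside it, at 1 UMI, than to those with 3 or more, for all 3 genes in both libraries. Not every riser had this shape in both libraries. BCL2L11 stood at 79.8, 96.1, 88.4 and 186 CPM in library 1 and at 54.0, 61.6, 67.2 and 65.4 CPM in library 2. With the positive class begun at 3 UMIs, edgeR called 656 genes higher and 166 lower.

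**Figure D3:**
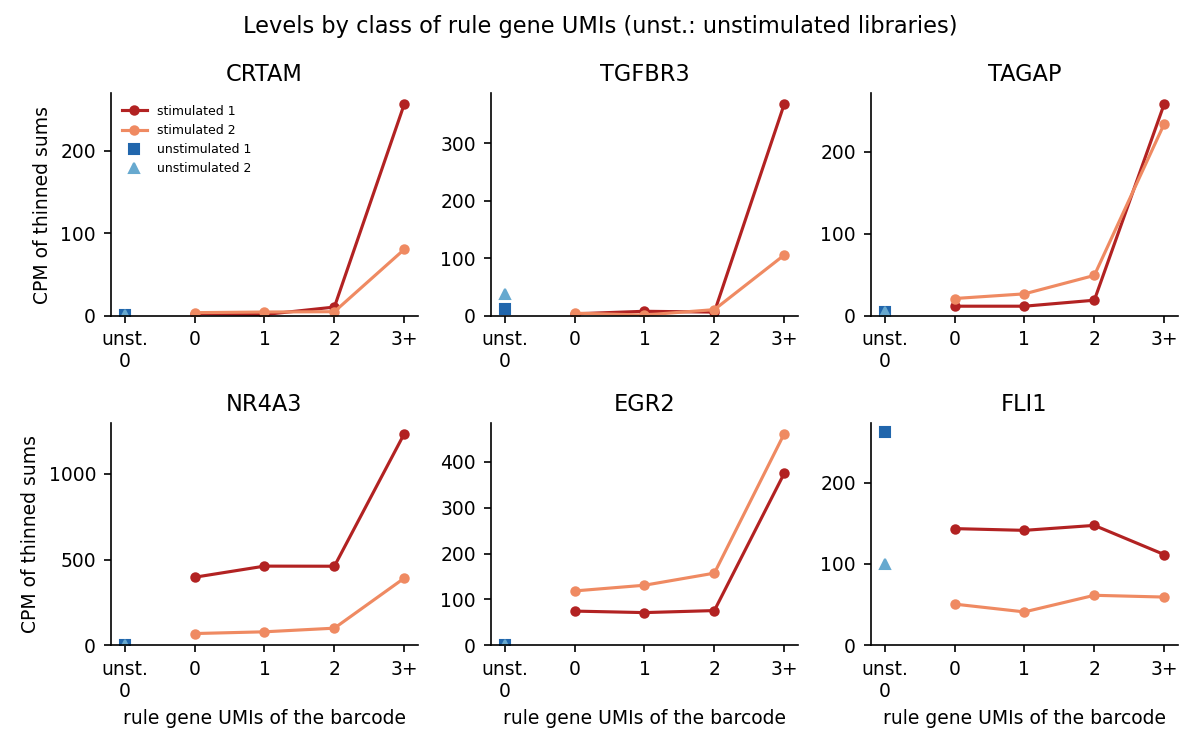
CPM of sums thinned to 5000 UMIs per barcode (y axis, each panel its own scale from 0) by rule UMIs of the barcode (x axis) in the 2 stimulated libraries, with unstimulated barcodes of 0 rule UMIs at the left. CRTAM, TGFBR3, TAGAP, NR4A3 and EGR2 are highest at 3 or more rule UMIs, and FLI1 is not higher there in library 1.

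Many members carried EOMES or TGFBR3, a pair picked after the values of the risers were seen. A UMI of either was found in 87 of 208 members of library 1 (41.8%) and 269 of 706 of library 2 (38.1%), against 9.60% and 9.76% of the zero class and 13.1% and 11.7% of barcodes with 1 rule UMI. Read the other way in thinned barcodes, 43 of 127 barcodes with EOMES or TGFBR3 in library 1 held 2 or more rule UMIs (33.9%, exact interval 25.7 to 42.8), against 1.12% (0.711 to 1.67) of those without. In library 2 the shares were 65.1% (59.0 to 70.9) and 15.4% (13.6 to 17.3). Barcodes with EOMES or TGFBR3 thus made up 5.82% and 14.9% of all barcodes and 65.2% and 42.6% of the cytokine-positive ones at this depth.

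Barcodes with EOMES or TGFBR3 were also present without stimulation. They made up 102 of 1760 thinned barcodes (5.80%, exact interval 4.75 to 6.99) in unstimulated library 1 and 68 of 278 (24.5%, 19.5 to 30.0) in library 2. Of these, 2 of 102 and 0 of 68 held 2 or more rule UMIs; the count of 0 has an upper exact bound of 5.28%. As counted, with 2 or more EOMES and TGFBR3 UMIs, the marked shares were 4.45% and 12.3% in the stimulated and 4.32% and 29.1% in the unstimulated libraries.

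**Figure D4:**
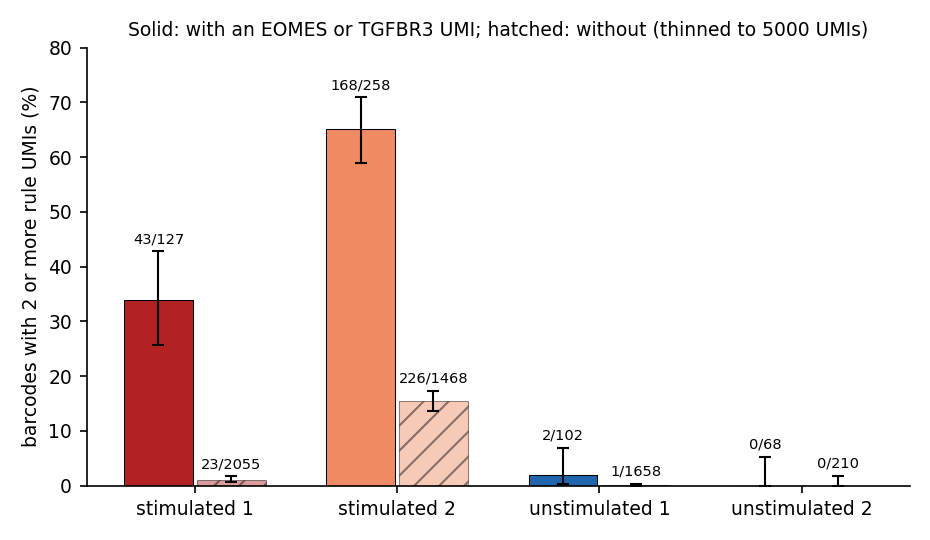
Share of barcodes with 2 or more rule UMIs (y axis, percent, exact 95% intervals) among barcodes with an EOMES or TGFBR3 UMI (solid) and without (hatched) in the 4 libraries, all thinned to 5000 UMIs, with counts above the bars. The share is 33.9% and 65.1% with and 1.12% and 15.4% without in the stimulated libraries, and at most 1.96% in any unstimulated bar.

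In unstimulated libraries, which the rule did not use, marked barcodes already differed from the rest. An edgeR comparison added after seeing the data set barcodes with 2 or more EOMES and TGFBR3 UMIs against those with 0, matched for depth (76 and 60 barcodes of each class, n = 2 libraries, library as a block). It called 291 genes higher and 105 lower of 11115, which is 2.62% and 0.945%; without the block edgeR called 0, with 34 at an unadjusted p under 0.05, and DESeq2 with the block called 44 and 3. SLAMF7 was higher by 4.76, PRSS23 by 4.19, CATSPERB by 3.25, CBR4 by 3.00, CST7 by 2.33, SRGN by 2.29, CD28 by 2.04 and SKIL by 1.86 on the log2 scale. SAMD3 stood at 162 against 1.25 CPM in library 1 and 30.3 against 0.862 CPM in library 2, and LY9, another receptor of the SLAM family, at 97.4 against 11.9 CPM and 32.9 against 0 CPM. SAMD3 and LY9 were named after their values were seen.

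Part of the members' profile was shared with these unstimulated cells. Of the 431 genes higher in stimulated members 130 were among the 291 higher in marked unstimulated barcodes, which is 30.2% of the former and 44.7% of the latter. Of the 431 only 350 were tested there, and the 130 are 37.1% of these. Of the 28 immediate early genes 18 were tested there and 0 were called either way (median -0.22). Of all genes tested there 2.62% were higher and 0.945% lower, so 0 of 18 says little. EGR2, NR4A3 and FOS had too few UMIs without stimulation to be tested there. Their absence from the 130 was therefore fixed by the count filter. IFNG and FASLG were found in 0 and 1 of 102 marked thinned barcodes of unstimulated library 1 and in 0 and 0 of 68 in library 2, but in 14 and 21 of 127 in stimulated library 1 and in 46 and 62 of 258 in library 2. CRTAM was found in 1 of 102 and 3 of 68 marked unstimulated barcodes and in 36 of 127 and 82 of 258 marked stimulated ones. Whether the response to stimulation differed between marked and unmarked barcodes was not tested. CD69, an early activation receptor, was found in 96.9% of marked and 96.9% of unmarked barcodes of stimulated library 1 and in 94.2% and 91.1% in library 2. Detection of CD69 was thus too near its ceiling to show a difference in level. EGR2 was below it, in 66.9% of marked and 26.7% of unmarked barcodes of stimulated library 1 and in 79.5% and 44.3% in library 2. NR4A3 was found in 77.2% against 46.4% and in 64.3% against 26.8%.

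When barcodes with any EOMES or TGFBR3 UMI were left out of both classes, most calls were lost. The comparison then held 116 and 341 barcodes of each class, and edgeR called 6 genes higher and 2 lower of 12753 (0.047% and 0.0157%), with 679 at an unadjusted p under 0.05. As many barcodes drawn from all members and all zero barcodes gave 456 higher and 60 lower. The 383 former risers still tested had a median log2 fold change of 0.12, where the same 383 had 0.56 with all matched barcodes, and 288 of the 383 stayed above 0. These barcodes were left out by the level of 2 of the risers, so lower values of genes found in the same barcodes follow in part from the choice.

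The 6 genes still higher were NR4A3 (log2 fold change 0.82, SE 0.09, edgeR adjusted p = 9.10e-05), EGR2 (0.65, SE 0.09), TGFBR2 (0.84, SE 0.14), RNF19A (0.54, SE 0.09), NFATC1 (0.41, SE 0.08), the NFAT member that activates its own gene, and NRXN3 (2.89, SE 0.39). SOX5 and GPC5 were lower (-1.60, SE 0.30, and -0.44, SE 0.07). RNF19A, NRXN3, SOX5 and GPC5 fall outside the naming rule. CATSPERB, CBR4, SKIL, SRGN, CD28, CST7, NEAT1 and MALAT1 had values between -0.38 and -0.01, none past the threshold. Over members tested in both fits the median went from 0.86 to 0.15 for 5 cytotoxic genes, without EOMES, FASLG and GZMK, which were not tested in the latter. It went from 0.46 to 0.20 for the 28 immediate early genes and from 0.23 to 0.18 for the 20 NFAT targets and feedback genes, of which 3 were called.

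**Figure D5:**
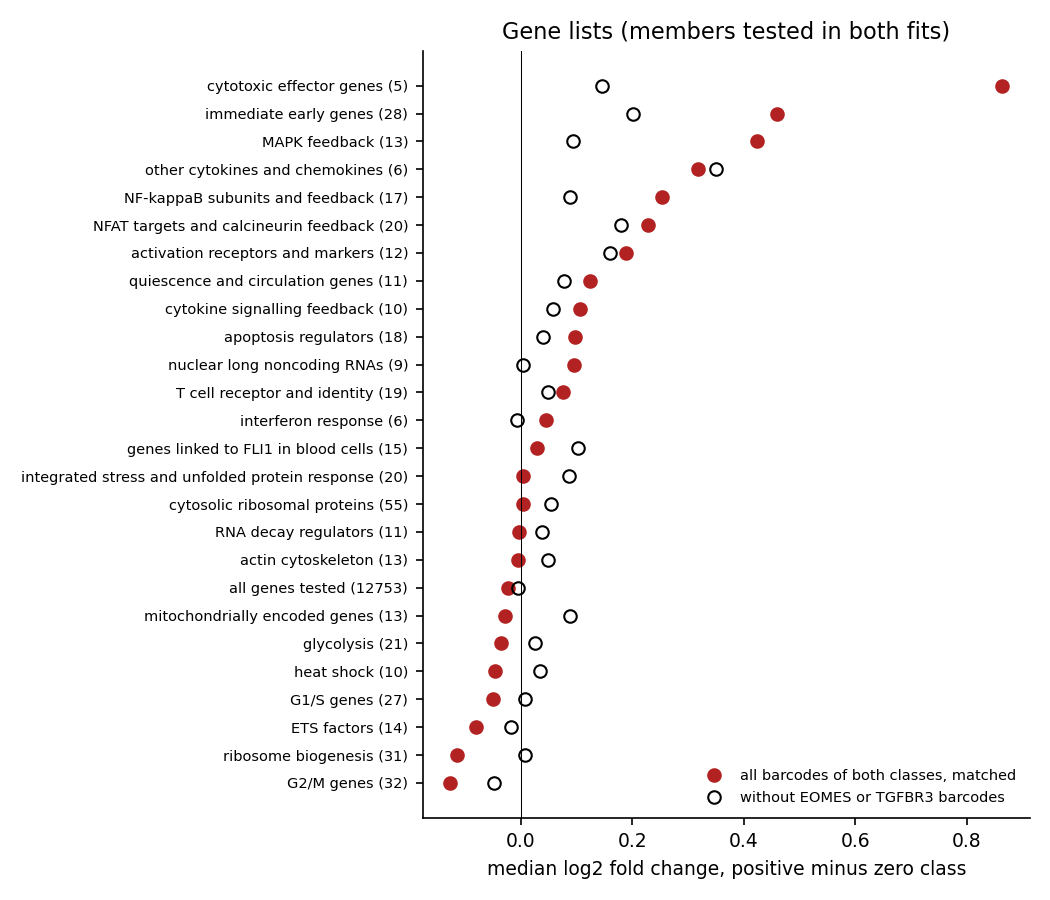
Median log2 fold change, positive minus zero class (x axis), of each gene list with at least 5 members tested in both fits (y axis, their number in brackets), with all matched barcodes (filled) and with EOMES or TGFBR3 barcodes left out (open). The cytotoxic list goes from 0.86 to 0.15, and the all-gene median stays at -0.02 and -0.01.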

How the data were processed

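Single-cell libraries of stimulated and unstimulated Jurkat cells were read from filtered matrices of UMI counts, deposited by the authors and made with cellranger 7.1.0, per the file headers. The submitters' processing notes name GRCh38. The matrices hold 36601 genes and were used as deposited, and other samples of the series were not analysed here. Near-identical genes (CCL3L1, CCL3L3, CCL4L1, CCL4L2, XCL2) stayed out of sums and tests, since reads may be split between copies. Barcodes under 5000 UMIs were left out, and no doublet caller was run on this single line.

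Classes were matched in bins of 0.05 log10 UMIs with a fixed seed, summed per library and tested with edgeR 4.0.16 in R 4.3.3 (filterByExpr, TMM, quasi-likelihood), checked on simulated data. Per-library ratios added 0.5 UMIs. Shares were also read after thinning each barcode to 5000 UMIs. Library is a block because both classes came from the same library. The unstimulated comparisons had no block, since the number in the titles was not known to pair them. Intervals are exact binomial.

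Genes were named if rule genes, FLI1, among the 12 highest and 12 lowest by the smaller of both libraries' log2 ratios with at least 100 UMIs in each, or among up to 4 list members with the smallest p. Members, lists and tests were chosen with earlier results of these data known. The EOMES and TGFBR3 comparisons were added after seeing the data. DESeq2 1.42.0 was an alternative.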

Additional observations from a re-analysis of the deposited data

Results flagged for a closer look

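Near-identical copies of the rule genes, which no comparison above used, also gave UMIs under stimulation. CCL4L2 gave 154 and 627 UMIs in barcodes of at least 5000 UMIs of stimulated libraries 1 and 2, against at most 1 in an unstimulated library. CCL3L1 gave 50 and 164 UMIs, against at most 1. XCL2 gave 55 UMIs in stimulated library 2, 0 in library 1 and at most 1 without stimulation. Of the CCL4L2 UMIs, 126 and 530 lay in members, and 21 and 43 zero barcodes held at least 1. How reads were split between a gene and its copy is not known, and zero barcodes with a copy's UMI were left in the zero class.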

How the results depend on the processing

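Between the positive and zero classes 489 genes were called. The count was 822 with 3 or more rule UMIs, 249 with at least 10000 UMIs, 267 with no filter on low counts, 114 with DESeq2, 0 with no replicate block and 8 without EOMES or TGFBR3 barcodes (added after seeing the data). It stayed within 1.5 times of 489 with another draw, no depth matching, thinning, mitochondrial or top-depth barcodes left out, library totals, or any 1 rule gene left out. Against unstimulated barcodes, where 0 genes were called in either class, the replicate block gave 897 (zero class) and 1883 (positive class), DESeq2 24 and 56, and leaving out 1 library 1 to 16 and 4 to 36. Library totals gave 0. Over 9860 genes the difference between libraries 1 and 2 correlated between the zero class and unstimulated barcodes (r = 0.97 across genes, which are not replicates), but 2 pairs do not settle the pairing. In the marked unstimulated comparison, where 396 were called, no replicate block gave 0 and DESeq2 47. The positive share was 3.02% and 22.8% after thinning, 28.4% and 69.1% with 1 or more rule UMIs and 5.18% and 26.8% with 3 or more. With at least 10000 UMIs it was 48.3% in library 2. Without stimulation it was 0.682% with 1 or more and 0.0568% with 3 or more in library 1, and 0% after thinning or with 3 or more in library 2. The sign of the estimate changed without EOMES or TGFBR3 barcodes for CATSPERB (-0.38), CBR4 (-0.030), SKIL (-0.050), SRGN (-0.012), CD28 (-0.030), CST7 (-0.084), ARRDC3 (-0.014), PPP1R15A (-0.0080), TNFRSF10B (-0.0098), NEAT1 (-0.033), MALAT1 (-0.065) and RPP40 (0.064). Each of these values was smaller than its SE, so a turned direction is not shown. In a rule without TNF the sign changed for ZSCAN30 (0.29). None of these values passed the test. The cause of the changes was not tested. Only 2 libraries per group limit every test.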
